A study of Saccharomyces cerevisiae with 51 samples.

Results

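The comparison described here is that of the sub1Δ mutant with the wild type after treatment with α-factor, as measured by RNA-Seq. It was taken by label and not by any measured value, and holds 2 of the 51 samples of the series, 1 library for each strain. Both strains are haploid MATa Saccharomyces cerevisiae and share the alleles lys2Δ0, ura3Δ0, his3Δ1 and met15 and the reporter bar1::pFUS1-GFP-LEU2, in which GFP driven by the FUS1 promoter replaces BAR1. Strain yAS395 carries sub1Δ::kanMX in addition, and strain yAS418, the wild type of this comparison, does not. Each was treated with 10 nM α-factor for 45 min before RNA was taken. The same 2 strains were also sequenced without α-factor, in fresh SC medium and in fresh SC medium with 1 M sorbitol, and these 3 other pairs share no library with the α-factor pair. Each strain is a single isolate and each condition a single library, so the differences below compare libraries, have no replicate check, and carry no test.

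α-factor is the peptide pheromone that MATα cells secrete. MATa cells sense it through the receptor Ste2, a G protein and a MAP kinase cascade, which ends at the transcription factor Ste12, and respond by expressing mating genes, such as FUS1 and FIG1, and by stopping in G1 before the next round of DNA replication. Bar1 is a secreted protease that degrades α-factor, and cells without it respond to low doses. Sub1 is a conserved coactivator of RNA polymerase II transcription, known for a role in the choice of the transcription start site at IMD2.

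The 8 RNA libraries held between 28754973 and 39497371 reads, with 32495708 in sub1Δ and 31572644 in the wild type with α-factor. The deposited values are a signal per 100-bp bin of the SacCer2 genome without gene names. Names were placed on bins by matching the pattern of genes in the R64 table to the signal, and the genes deleted in these strains checked the result. LYS2, URA3, MET17 (the gene of the met15 allele) and BAR1 had 0 reads in all 8 libraries. SUB1 (chromosome XIII, bins 348700 to 349400) had 1 read in sub1Δ and 3771 reads in the wild type with α-factor, and 0 to 2 reads against 3249 to 4124 in the other pairs, so every library matched its strain label. HIS3, which the his3Δ1 allele removes only in part, had 3293 and 2319 reads, and LEU2, the marker of the reporter, had 2672 and 1640. Over 6 genes of MATa cells the summed signal was 62148 in sub1Δ and 77448 in the wild type, and over 4 genes of MATα cells it was 299 and 240. Of the MATa genes, MFA1 and MFA2 were counted on every bin they touch. Of the MATα genes, SAG1 had 3414 reads in sub1Δ and 2565 in the wild type, STE3 243 and 183, and MF(ALPHA)2 182 and 150. The pheromone gene MF(ALPHA)1 had 18 and 21. Over 9 genes of diploid or sporulating cells it was 496 and 499. Reads lay equally far along genes, with a median of 60.4% of them in the part of a gene's bins nearest its 3′ end in sub1Δ and 60.3% in the wild type.

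Few genes differed between the strains by as much as 2-fold. Of 5598 protein-coding genes with at least 50 reads in 1 of both libraries, 32 (0.572%) were called higher in sub1Δ and 27 (0.482%) lower, where a call is a log2 ratio of sub1Δ to wild type of at least 1 in size. A total of 90.3% of genes lay within 0.5 on the log2 scale. The median log2 ratio of all genes was 0.11, with quartiles of −0.04 and 0.27, and centring on that median gave 18 genes higher and 41 lower, so the excess of higher calls depended on the scaling. The 14 genes that centring took out of the higher calls included CLB2, GIN4, BFA1, ADE57, SHM2 and HES1. The genes called higher were less abundant, with a median signal of 44.9 per bin, than those called lower, with 488, the median of all genes being 160. Just inside the threshold were BFA1 at 1.02 and YPR195C at 1.02 and, on the other side, HXK1 at −1.03 and HOR7 at −1.09. Just outside were CEM1 at 0.999, SPO11 at 0.992, GPH1 at −0.98 and ECM13 at −0.98.

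**Figure D1:**
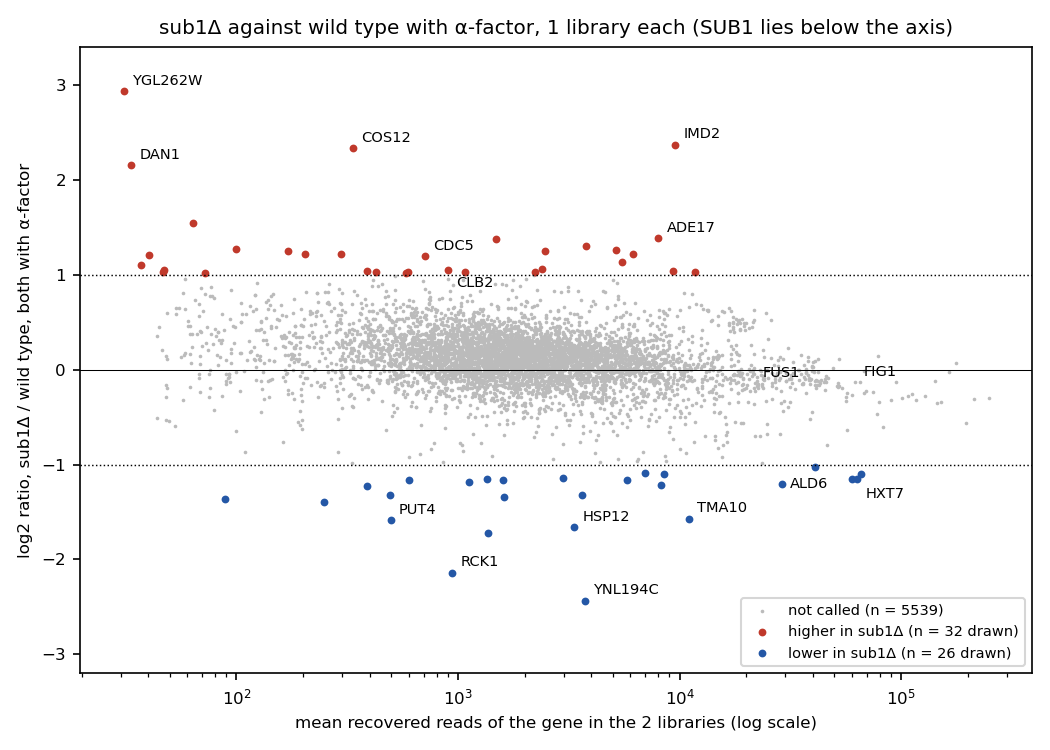
Log2 ratio of sub1Δ to wild type with α-factor (vertical axis) against the mean number of recovered reads of a gene in both libraries (horizontal axis, log scale), 1 point for each of 5598 genes and 1 library for each strain. Dotted lines mark the threshold of 1 in size. Red points are the 32 genes called higher and blue points 26 of the 27 called lower, SUB1 lying below the axis. IMD2, at 2.37, stands well above genes of similar abundance, and FUS1 and FIG1 lie near 0.

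IMD2 was the abundant gene with the highest ratio. It encodes IMP dehydrogenase, the rate-limiting enzyme of GTP synthesis. Its bins (chromosome VIII, 554500 to 555900) held 16123 reads in sub1Δ and 3026 in the wild type, a 5.18-fold difference and a log2 ratio of 2.37, with a 95% interval from 2.32 to 2.43. Intervals here and below are exact binomial intervals of the reads and cover counting error only, not the variation between cultures. All 15 bins of IMD2 were higher in sub1Δ. Of its paralogs, IMD3 and IMD4 were not called, with 13412 against 7456 reads (0.81) and 17927 against 11798 reads (0.56). Both encode further subunits of the same enzyme. GUA1, which encodes the GMP synthase that follows IMP dehydrogenase, had 12740 and 12184 reads (0.02). In the list for IMP dehydrogenase and GTP synthesis, 1 of 6 genes was called higher and none lower, against 0.572% of all genes called higher. The median was 0.29, against 0.11 over all genes. The authors' counting could share reads among the similar IMD genes.

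The difference at IMD2 was not the same along the locus. In wild-type cells this gene is known to start at upstream sites, which give short unstable transcripts, or at a downstream site, which gives the mRNA, depending on the supply of guanine nucleotides. In the bin that begins 300 bp before the first full bin of the gene, sub1Δ was lower, with 51 reads against 131, a log2 ratio of −1.40 (−1.90 to −0.93). In the next bin, 200 bp before the gene, the strains had 157 and 139 reads, a ratio of 0.13 with an interval from −0.20 to 0.47 that includes 0. In the bin after that sub1Δ was higher, with 822 reads against 172, a ratio of 2.22 (1.98 to 2.46), and the ratio reached 3.08 (2.95 to 3.22) in the bin past the last full bin of the gene, with 4075 against 467 reads. In the upstream bin the ratio was also below 0 in the other pairs, at −0.80 without α-factor, −1.42 in fresh medium and −0.58 in sorbitol, the last with an interval from −1.29 to 0.10. The signal is not separated by strand, so reads of the 2 strands cannot be told apart in these bins or at any gene.

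**Figure D2:**
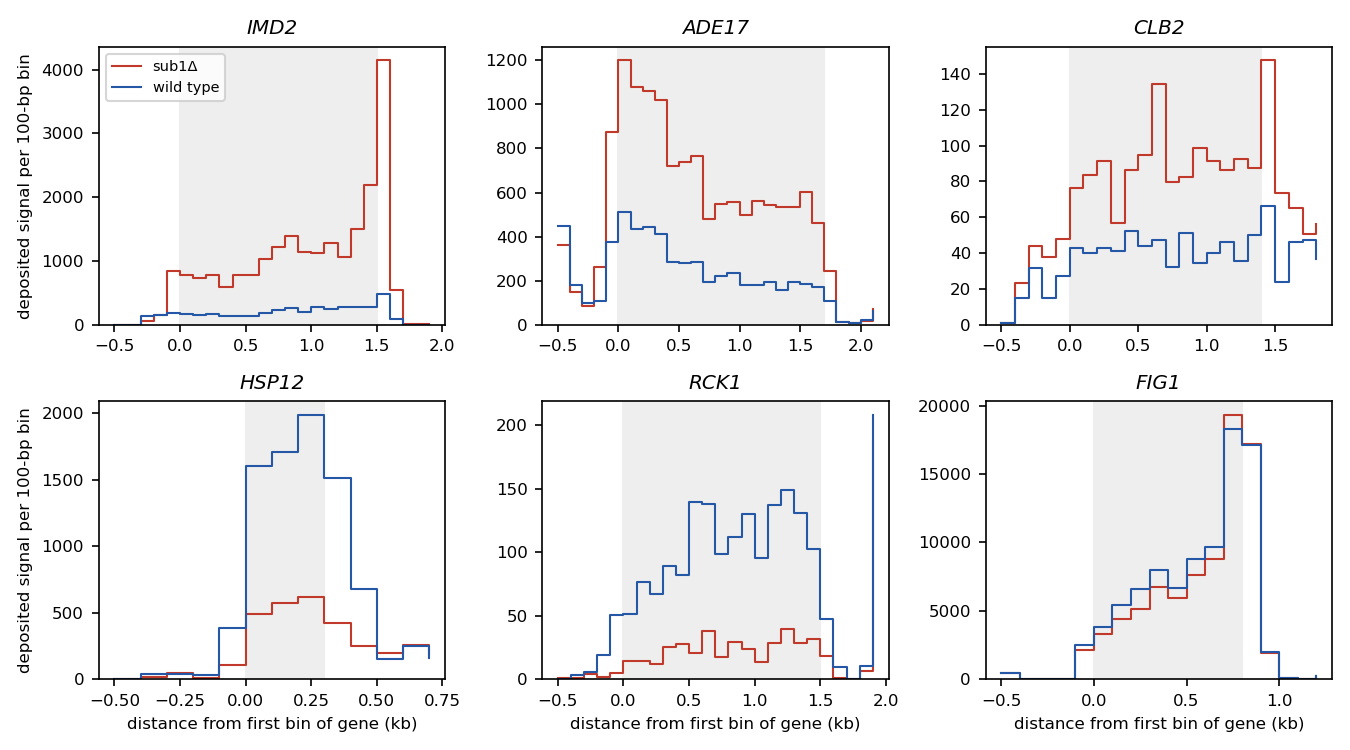
Deposited signal per 100-bp bin (vertical axes, each from 0) along 6 genes and 0.5 kb on each side, against the distance from the first full bin of the gene (horizontal axes, kb, in the direction of increasing chromosome position), for sub1Δ (red) and the wild type (blue) with α-factor. Gray marks the full bins of the gene. In IMD2, ADE17 and CLB2 sub1Δ was above the wild type in every gene bin, in HSP12 and RCK1 it was below in every gene bin, and in FIG1 the curves nearly coincide.

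Sub1 itself was mapped in the series by ChIP-Seq with a 3HA tag in strain yAS420, in single libraries. The one with α-factor was taken after 30 min. The tagged libraries with and without α-factor are both compared with 1 untagged library, of strain yAS38 without α-factor. In the 5 bins before IMD2 the signal of tagged cells with α-factor was 66.7 times that of untagged cells, and 54.2 times without α-factor. It was the highest of the 108 genes named by rule or called, followed by TDH3, a highly transcribed glycolytic gene, at 42.0 times, whose RNA was not called. Over all genes the median was 1.80 times. It was 1.70 times before genes called higher and 2.35 times before genes called lower, of which 34.4% and 55.6% were at 2 times or more, against 38.7% of all genes. The genes called lower were also more abundant in RNA, with a median signal of 488 per bin against 44.9 for those called higher. The part of abundance in these ChIP values was not tested.

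In adenine nucleotide synthesis 3 of 13 genes were called higher and none lower, against 0.572% of all genes called higher. The pathway builds IMP from phosphoribosyl pyrophosphate in a series of steps encoded by the ADE genes, and the activators Bas1 and Pho2 are known to drive these genes together with several of one-carbon metabolism. In that list 12 genes were above 0, and the median log2 ratio was 0.77, against 0.11 over all genes. ADE17, which encodes an isozyme of the last steps to IMP, had 11695 reads in sub1Δ and 4357 in the wild type, a log2 ratio of 1.38 (1.33 to 1.43). Its sister gene ADE16 had 7618 and 7680 reads, a ratio of −0.05. ADE2, which acts in the middle of the pathway, had 7607 and 3374 reads, a ratio of 1.13 (1.07 to 1.19). ADE57, the gene known as ADE5,7 that encodes a bifunctional enzyme of the early steps, had 12751 and 6016 reads, a ratio of 1.04 (1.00 to 1.09), and was at 0.93 after centring. Below the threshold were ADE12 at 0.94, ADE4 at 0.83, ADE13 at 0.80 and ADE1 at 0.77.

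Of 13 genes for the supply of serine, glycine and one-carbon units, which purine synthesis uses, 4 were called higher and none lower. The median of this list was 0.57. Over all genes 0.572% were called higher, and the median was 0.11. The one-carbon list was made after the values were seen and is no independent evidence. The other lists were chosen with earlier results of these data known, and are not independent evidence either. MTD1, a cytosolic methylenetetrahydrofolate dehydrogenase, had 5416 reads in sub1Δ and 2126 in the wild type, a log2 ratio of 1.31. SER3, which encodes the enzyme of the first step from glycolysis to serine, had 7309 and 2969 reads, a ratio of 1.26, while its isozyme gene SER33 had 4140 and 3098, a ratio of 0.38. GCV2, a subunit of the glycine decarboxylase, had 3507 and 1432 reads, a ratio of 1.25. SHM2, the cytosolic serine hydroxymethyltransferase, had 15903 and 7570 reads, a ratio of 1.03, and the mitochondrial form SHM1 had 6477 and 6308, a ratio of 0.00. In both groups of enzymes, then, 1 of a pair of isozyme genes was called and the other was near 0 or below the threshold. Without α-factor the medians of the adenine and one-carbon lists were 0.72 and 0.45, against 0.05 over all genes, with 0 and 1 genes called.

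**Figure D3:**
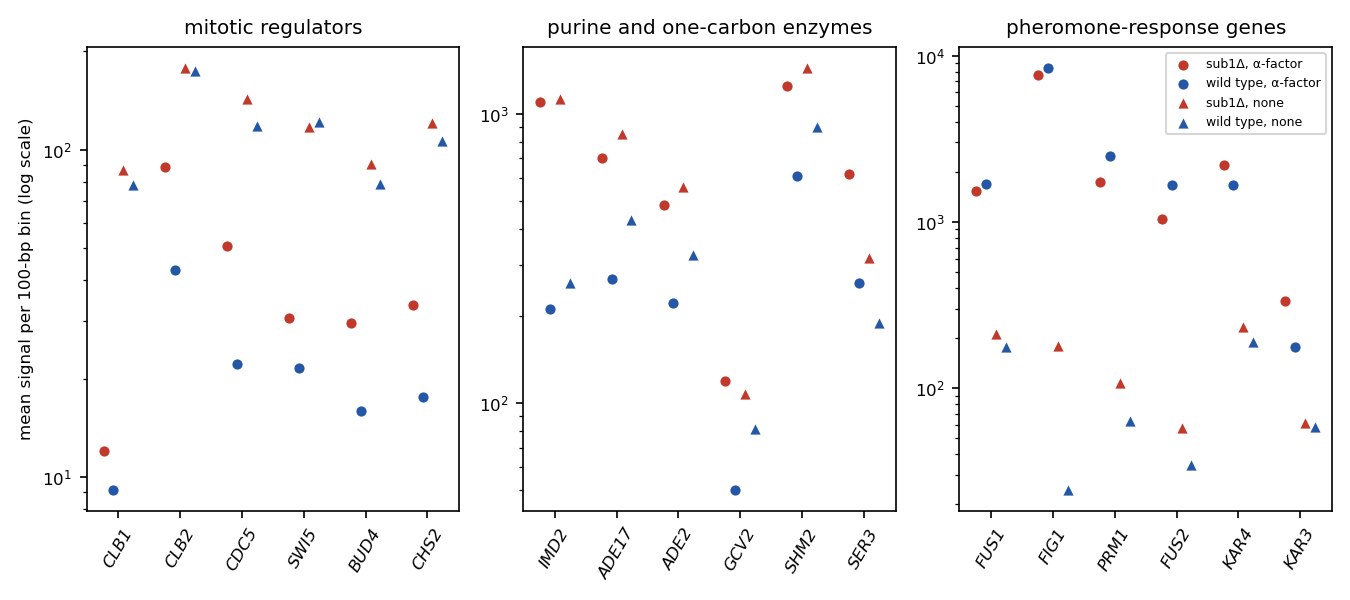
Mean deposited signal per 100-bp bin (vertical axes, log scale) of genes of 3 groups in sub1Δ (red) and the wild type (blue), with α-factor (circles) and without (triangles), each point a single library. With α-factor CDC5 and CLB2 were at log2 ratios of 1.20 and 1.05 and without it at 0.27 and 0.03, ADE17 was at 1.38 and 0.98 and GCV2 at 1.25 and 0.40, and FIG1 was past the 2-fold threshold without α-factor and not with it.

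In the list of G2 and mitosis genes 2 of 14 were called higher in sub1Δ with α-factor and none lower, against 0.572% of all genes called higher. All 14 were above 0, and the median log2 ratio was 0.64, against 0.11 over all genes. The median signal of the list was 52.8 per bin in sub1Δ and 29.7 in the wild type with α-factor, against 108 and 91.5 without it. CDC5, the polo-like kinase of mitosis, had 998 reads in sub1Δ and 422 in the wild type, a log2 ratio of 1.20 (1.03 to 1.37). CLB2, the main mitotic B-type cyclin, had 1221 and 573 reads, a ratio of 1.05 (0.91 to 1.20). Both calls rest on the setting: with a pseudocount of 10 the ratios were 0.92 for CDC5 and 0.90 for CLB2, and centring gave 0.94 for CLB2. Among the 12 members not called, CHS2, the chitin synthase of the septum, had 923 and 469 reads (0.94), and BUD4, a protein of the bud neck, had 1249 and 655 (0.89). The members nearest 0 were ALK1 at 0.13 and CLB3 at 0.24.

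Of the called genes outside that list, 3 were singled out after their values were seen, and support nothing about it. GIN4 and KCC4 encode related kinases of the septin ring, with 577 against 275 reads (1.03) and 417 against 174 reads (1.22). BFA1, part of the complex that holds back mitotic exit, had 785 and 377 reads (1.02). GIN4 and BFA1 were not called after centring, and KCC4 was at 0.59 with a pseudocount of 10. In the pair without α-factor the same ratios were 0.27 for CDC5, 0.03 for CLB2, 0.03 for GIN4, 0.03 for KCC4 and 0.45 for BFA1. There the median of the G2 and mitosis list was 0.17, against 0.05 over all genes. In fresh medium and in sorbitol the list had medians of 0.25 and 0.37, against 0.08 and 0.19 over all genes, with no gene called in either. The list of G1 and S-phase genes was mixed, with 14 of 21 above 0, none called, a median of 0.35 and a range from −0.96 for DSE1, a gene of daughter cells, to 0.75 for PCL9, a G1 cyclin. In RNA from whole cultures, more cells in mitosis and more RNA per cell cannot be told apart.

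The remaining genes called higher fell in no common pathway of the lists. YGL262W, an uncharacterized gene near the left end of chromosome VII, had the highest ratio, 2.93, on 55 reads against 7, with an interval from 1.79 to 4.31. COS12, from a family of membrane proteins encoded near telomeres, had 562 and 108 reads, a ratio of 2.34 (2.04 to 2.65), and was the 1 gene called of 10 in its family, whose median was 0.35. DAN1, a cell wall mannoprotein of anaerobic cells, had 55 and 12 reads, a ratio of 2.15 (1.24 to 3.19). It was the 1 gene called of 11 in the list of PAU and anaerobic genes, with a median of 0.40. For both lists, the share of all genes called higher was 0.572%, and the median of all genes 0.11. Genes within 20 kb of a chromosome end made up 6 of the 32 called higher (18.8%), namely COS12, IMD2, VEL1, YGL258W-A, YGL262W and YPR195C, against 3.47% of all genes tested. Of these, COS12, YGL262W, YGL258W-A and VEL1 lie together at the left end of chromosome VII (bins 2900 to 11600). Most of the share thus comes from a single chromosome end.

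Among the other higher genes, HES1, of the oxysterol-binding protein family, stood out for its levels. Its signal per bin was 68.3 in sub1Δ and 33.4 in the wild type with α-factor, a log2 ratio of 1.03, and 6.94 and 7.26 without it. With α-factor 9 of its 12 bins were higher in sub1Δ and 3 lower. The neighbors YNR065C and YNR066C on chromosome XIV had ratios of 1.22 on 8650 against 3614 reads and 1.37 on 2156 against 808 reads, and 0.28 and 0.31 without α-factor. PHO92, an RNA-binding protein of the YTH family, was at 1.54 on 96 against 32 reads. VEL1 was at 1.28 on 142 against 57 reads, HLR1 at 1.25 on 242 against 99 reads and SRO9, an RNA-binding protein of the La family, at 1.22 on 287 against 120 reads. PHO92, VEL1 and HLR1 had fewer than 100 reads in the wild type, and their intervals are wide, such as 0.95 to 2.17 for PHO92.

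**Figure D4:**
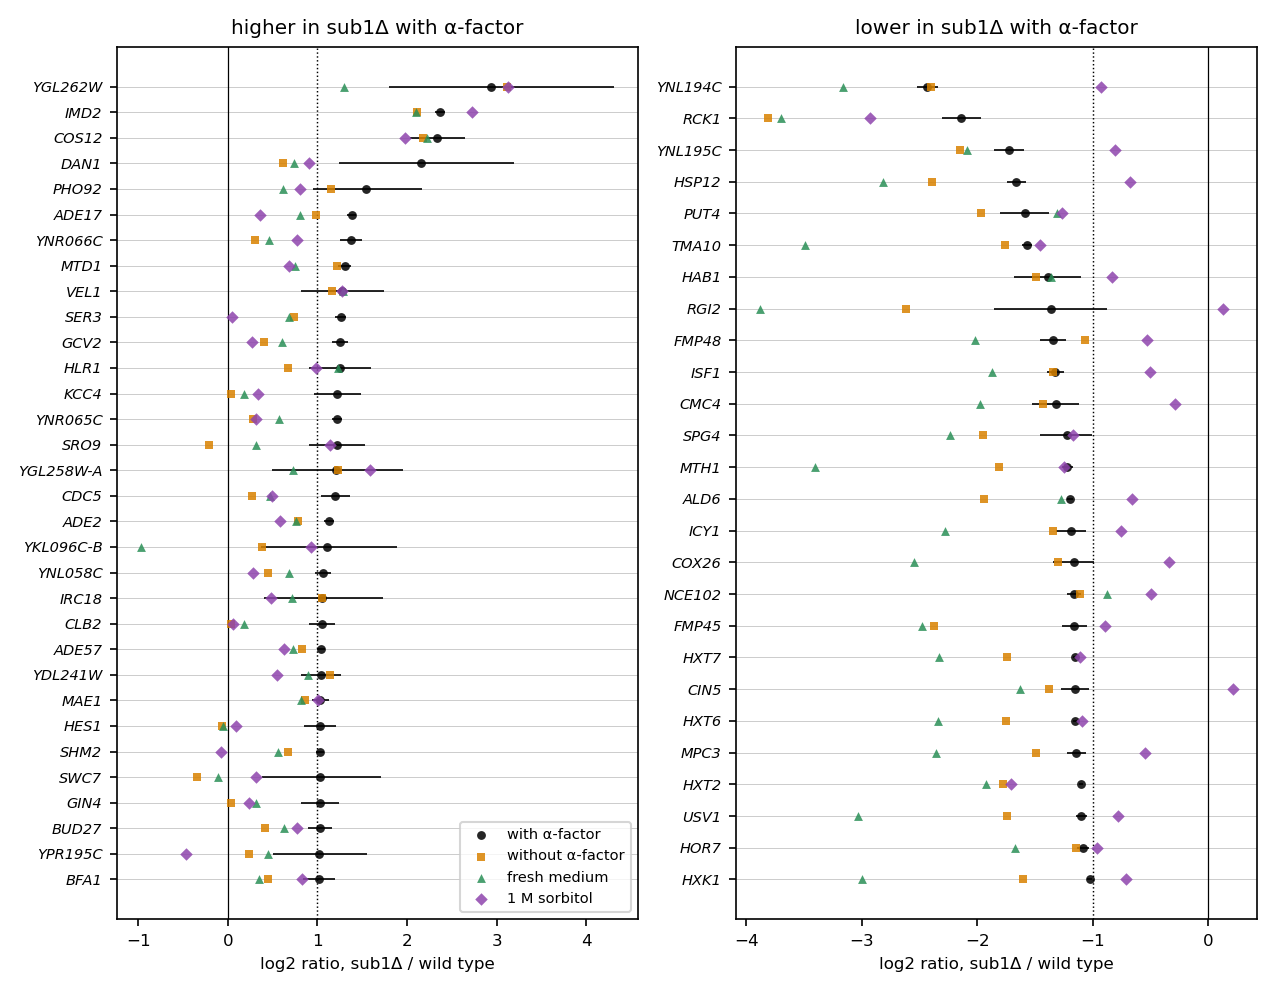
Log2 ratio of sub1Δ to wild type (horizontal axes) for the genes called higher (left) and lower (right) with α-factor, in the pair with α-factor (black circles, the line being the 95% interval of the reads), without α-factor (orange squares), in fresh medium (green triangles) and in 1 M sorbitol (purple diamonds), each from 1 library a strain. SUB1 is left out. IMD2 and COS12 lie near or above 2 in all 4 pairs, CDC5 and CLB2 are past the dotted threshold only with α-factor, and most genes on the right lie further below 0 without α-factor and in fresh medium.

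Genes called lower in sub1Δ were led by SUB1 itself and included genes of the stress response and of hexose transport. For SUB1 the single read gave a log2 ratio of −11.92 with an interval from −17.23 to −9.44. YNL194C, an integral membrane protein of the eisosome region, was lowest of the rest, with 1199 reads in sub1Δ and 6289 in the wild type, a ratio of −2.43 (−2.52 to −2.34), and its neighbor YNL195C had 648 and 2078 reads, a ratio of −1.72. RCK1, a protein kinase of the oxidative stress response, had 357 and 1526 reads, a ratio of −2.14 (−2.31 to −1.97). HSP12, a small membrane-associated heat shock protein, had 1644 and 5053 reads, a ratio of −1.66 (−1.74 to −1.58). PUT4, a proline permease, had 253 and 739 reads (−1.59), and TMA10, a protein associated with ribosomes, had 5677 and 16357 reads (−1.57). RCK1 and HSP12 were lower in every one of their 15 and 3 bins.

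In the list of the environmental stress response, the broad set of genes driven by Msn2 and Msn4 in stressed cells, 5 of 29 genes were called lower and none higher. A total of 26 were below 0, and the median log2 ratio was −0.56. Over all genes 0.482% were called lower, and the median was 0.11. Beside HSP12 the called genes of the list were RGI2, of respiratory growth, at −1.36 on 51 against 127 reads, and CIN5, a bZIP transcription factor, at −1.15 on 854 against 1847 reads. The others were USV1, a zinc finger protein, at −1.10 on 5497 against 11434 reads, and HOR7 at −1.09 on 4557 against 9411 reads. MSN4 itself was at −0.64, CTT1, the cytosolic catalase, at −0.42, and HSP104, the disaggregase, at 0.32. The other members above 0 were the heat shock genes SSA3 at 0.17 and HSP30 at 0.33.

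Hexose transporters gave another group. MTH1, which represses transporter genes when glucose is low, had 5043 reads in sub1Δ and 11413 in the wild type, a log2 ratio of −1.22. The high-affinity transporter HXT2 had 42552 and 88759 reads (−1.10). HXT7 and HXT6, also of high affinity, had 40019 against 86654 (−1.16) and 37814 against 81600 reads (−1.15), but are near-identical copies whose reads cannot be assigned to either with certainty. The hexokinase gene HXK1 had 27542 and 54475 reads (−1.03). In all, 5 of 18 genes of hexose transport and sensing were called lower and none higher, against 0.482% of all genes called lower. A total of 16 were below 0, and the median was −0.48, against 0.11 over all genes. HXT3 and HXT1, transporters of low affinity, were at −0.47 and −0.24, and the glucose sensor genes RGT2 and SNF3 at 0.22 and −0.15.

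Most genes of related pathways were below 0 without passing the threshold. No gene of 16 in trehalose and glycogen metabolism was called, with 14 below 0, a median of −0.28 and the lowest ratio at GPH1, glycogen phosphorylase (−0.98). No gene of 39 in respiration and the TCA cycle was called, with 37 below 0, a median of −0.30 and the lowest ratio at HAP4, the activator of respiratory genes (−0.91). In the list of osmotic stress genes of the Hog1 type the median was 0.08, against 0.11 over all genes. The 1 gene called of 18, against 0.482% of all genes called lower, was ALD6, a cytosolic aldehyde dehydrogenase, with 17845 and 39844 reads (−1.20). The other called genes ranged from −1.39 for HAB1 to −1.14 for MPC3, a mitochondrial pyruvate carrier, and included SPG4, of stationary phase, and FMP45 and NCE102, of the eisosome region.

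No listed gene of the pheromone response itself differed between the strains by 2-fold with α-factor. FUS1, needed for cell fusion, had 21043 reads in sub1Δ and 22522 in the wild type, a log2 ratio of −0.14, and FIG1, a membrane protein of mating, had 60144 and 64135 reads, a ratio of −0.13. Without α-factor the 2 genes had 2825 against 2949 reads and 1355 against 232 reads, or a signal per bin of 213 and 176 for FUS1 and of 179 and 24.3 for FIG1. In the list of pheromone-induced mating genes none of 30 was called in either direction, 18 were below 0, and the median was −0.14, against 0.11 over all genes. In the other pairs the median of the list was 0.25 without α-factor, 0.41 in fresh medium and 0.44 in sorbitol. Over all genes the medians of those pairs were 0.05, 0.08 and 0.19. The lowest members were FUS2, of cell fusion, at −0.68 on 19367 against 30167 reads, the agglutinin subunit AGA2 at −0.60, the adhesin FIG2 at −0.56 on 161557 against 231918 reads, and PRM1, of membrane fusion, at −0.52 on 32431 against 45127 reads. The highest was KAR3, the kinesin of nuclear fusion that also works on the mitotic spindle, at 0.91 on 6891 against 3561 reads, followed by PRM3 at 0.49 and KAR4, the transcription factor of karyogamy genes, at 0.40.

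The signaling proteins upstream differed still less. None of 21 genes was called, and the median was 0.06. The receptor gene STE2 was at −0.23, the G protein subunit genes GPA1, STE4 and STE18 at 0.02, 0.00 and −0.04, the kinase genes STE11, STE7, FUS3 and KSS1 at 0.21, 0.21, 0.37 and 0.07, STE12 at −0.02, and FAR1, the inhibitor of G1 cyclin kinase, at −0.12. SST2, which turns the signal off, was lowest, at −0.46 on 12841 against 17128 reads. In the ChIP libraries the signal before FIG1 was 17.0 times untagged with α-factor and 1.57 times without, and before FUS1 13.0 and 2.38 times. The untagged cells had no α-factor in either case. Their own signal was 2.90 times the median bin before FUS1, whose promoter the reporter also carries, and 0.85 times before FIG1.

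Nearly all genes called lower with α-factor were also called lower without it and in fresh medium, and fewer were in sorbitol, while most of those called higher were called in none of the other pairs. Without α-factor 45 of 5624 genes (0.8%) were called higher and 79 (1.4%) lower, in fresh medium 18 (0.321%) and 147 (2.63%) of 5599, and in sorbitol 37 (0.66%) and 27 (0.482%) of 5604. Of the 27 genes called lower with α-factor, 27 were also called lower without it, 26 in fresh medium and 9 in sorbitol, which is 34.2%, 17.7% and 33.3% of the genes called lower in those pairs. Their median log2 ratio was −1.22 with α-factor, −1.75 without, −2.31 in fresh medium and −0.80 in sorbitol. The 9 genes called lower in all 4 pairs were HXT2, HXT6, HXT7, MTH1, PUT4, RCK1, SPG4, SUB1 and TMA10. NCE102 was the gene missed in fresh medium, at −0.88. In sorbitol 25 of the 27 were below 0, and the other 2 were above 0, CIN5 at 0.22 with an interval from 0.14 to 0.29 and RGI2 at 0.13.

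Of the 32 genes called higher with α-factor, 9 were also called higher without it, 4 in fresh medium and 6 in sorbitol, or 20.0%, 22.2% and 16.2% of the genes called higher in those pairs. COS12, IMD2, VEL1 and YGL262W were called in all 4. A total of 20 were called in none of the other 3 pairs, among them ADE17, ADE2, CDC5, CLB2, GIN4, KCC4, GCV2, SER3 and HES1. Most of these still had a ratio above 0. Of the 32, 31 had enough reads to be compared without α-factor, and 28 of those were above 0 there, with a median of 0.67. Whether the ratios differ between conditions was not tested, as each pair is 1 library a side.

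Of the 32 lists compared, 24 had no gene called. Beside the 5 such lists already described, 19 had medians between −0.23, for glycolysis, and 0.39, for arginine and histidine synthesis. These included histones at 0.01, ribosome biogenesis at 0.04, iron genes at 0.08, protein folding at 0.20, phosphate regulation at 0.22, lysine synthesis at 0.33 and cell wall integrity at −0.01. General transcription factors and proteins linked to Sub1 had a median of 0.13. Ribosomal protein genes, a list added after the values were seen, had a median of −0.09 with none of 130 called.

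**Figure D5:**
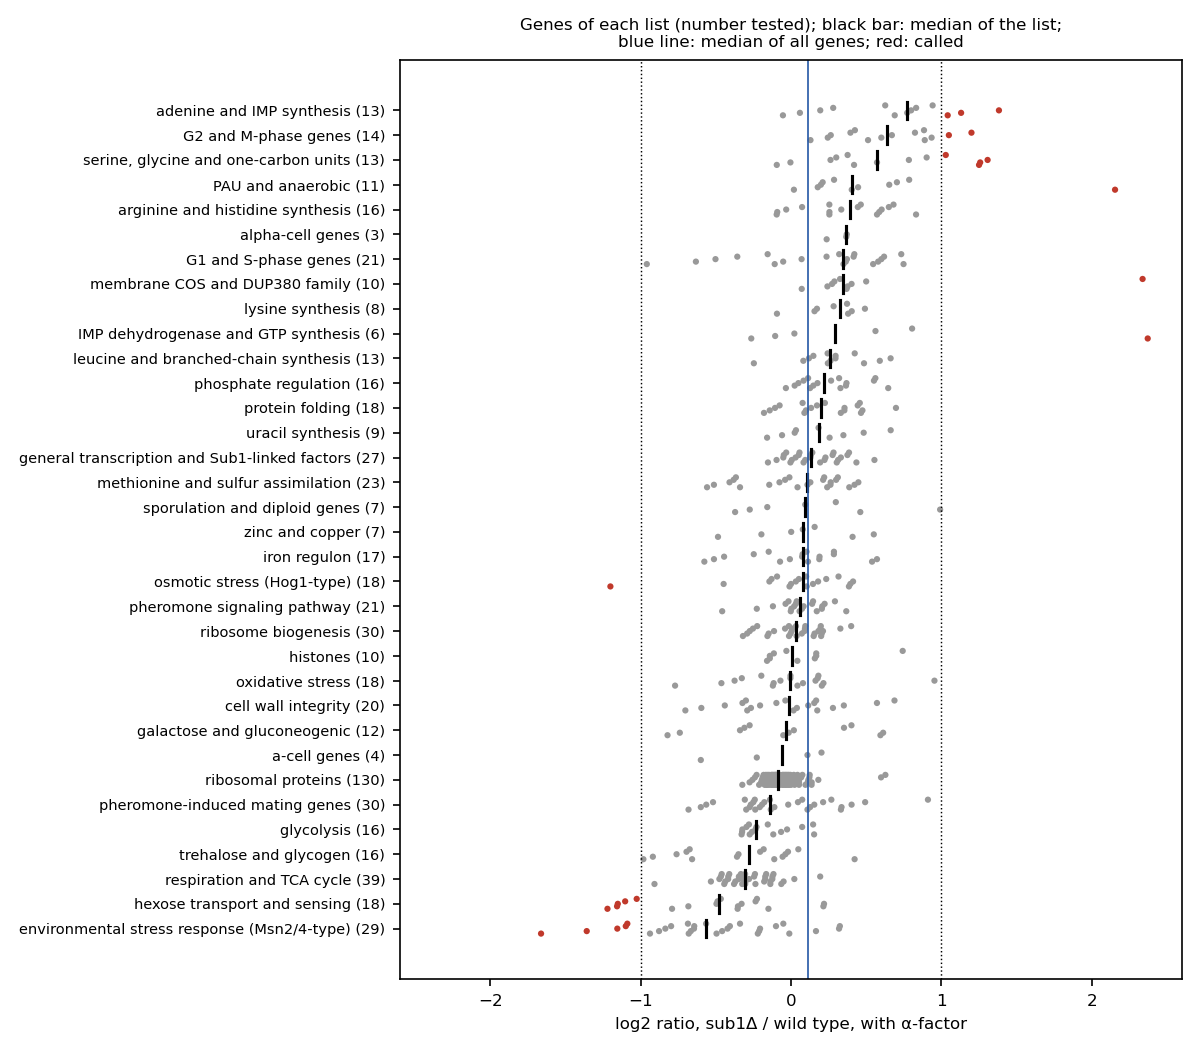
Log2 ratio of sub1Δ to wild type with α-factor (horizontal axis) for the genes of each list (rows, with the number tested), 1 point a gene, red where called, with a black bar at the median of the list. The blue line is the median of all genes, 0.11. The adenine and the G2 and mitosis lists lie to the right with medians of 0.77 and 0.64, and the hexose and stress lists to the left with medians of −0.48 and −0.56.

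At the level of single bins, 63276 bins were compared and 587 (0.928%) were called higher in sub1Δ and 380 (0.601%) lower. Of the higher bins 173 touched a called gene and 140 touched no gene, and of the lower bins 214 and 69. Runs of at least 3 adjacent bins made up 38 of the 131 lower runs and 45 of the 309 higher runs. Apart from runs on called genes, the longest lower run was of 7 bins over CCW22 (chromosome IV, bins 720900 to 721500), a cell wall protein gene, with 10379 reads in sub1Δ and 24903 in the wild type and a log2 ratio of −1.30. The next covered AIM39 and DDR2, a stress gene, on chromosome XV (bins 231300 to 231800), with 4359 and 11087 reads (−1.39), and the third lay in MRK1, a kinase gene of the GSK3 family, on chromosome IV (bins 314400 to 314700), with 1715 and 3695 reads (−1.15).

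Among higher runs outside called genes, a run of 19 bins near the right end of chromosome X (bins 726000 to 727800), where no gene name could be placed, had 5306 reads in sub1Δ and 2163 in the wild type, a log2 ratio of 1.25. Runs of 19 and 11 bins on chromosome XII (464900 to 466700 and 456400 to 457400), between RNH203 and YLR157C-B where the ribosomal RNA genes lie, had 28660 against 12288 reads and 18859 against 7767 reads, at ratios of 1.18 and 1.24. Ribosomal RNA is largely removed by selection for poly(A), and the part of that step in these ratios was not tested.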

How the data were processed

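RNA of 8 cultures was selected for poly(A) and read without strand information. Mapping by the authors was with Bowtie2 against SacCer2, and the deposited values are a signal for each 100-bp bin, brought to 1 common total. All values were whole multiples of the smallest (tolerance 0.01), which gave the reads. The binning method is not given in the sources used here. ChIP libraries, also deposited as a signal, were divided by their median bin.

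From these, the ratio of sub1Δ to wild type was taken per gene on the mean of its full bins, with no pseudocount, for genes of at least 50 reads, and per bin on the log2(value + 1) scale for bins that reached the median non-zero bin of either library. The threshold was 1 on the log2 scale. Intervals are exact (Clopper-Pearson, 95%). Names came from sliding the R64 gene table (shifts of 20 bp up to 600 bp) along windows of 25 kb. Of 485 windows, 461 were placed at +40 bp, 17 on chromosome XI at −300 bp and 7 not at all. Of 6002 protein genes 5598 were compared.

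The comparison, the gene lists and the rules were chosen with earlier results of these data known. Named by rule are the genes of the genotypes, FUS1, FIG1, IMD2, the 15 highest and 15 lowest called genes, the 4 largest calls of each list or the 2 genes with most reads where none was called, and the 3 longest runs. Other genes were named after their values were seen. The steps used Python 3.11.15, numpy 2.4.6, pandas 2.3.3, scipy 1.17.1 and matplotlib 3.10.9 and were tested on simulated data.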

Additional observations from a re-analysis of the deposited data

Results flagged for a closer look

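The mating gene FIG1 had a log2 ratio of sub1Δ to wild type of −0.13, near 0, with α-factor and of 2.88 without it. The adhesin gene FIG2 had −0.56 with α-factor and 0.96 without it, neither past the threshold of 1. Neither difference between conditions was tested, as each pair is 1 library a side.

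Some signal lay outside the genes compared. The 2-micron plasmid had 105836 reads in sub1Δ and 69514 in the wild type with α-factor, a log2 ratio of 0.56, and ratios of 0.55 without α-factor, 0.35 in fresh medium and 0.73 in sorbitol. The run of bins near the right end of chromosome X (726000 to 727800) had a ratio of 1.25 with α-factor, and 0.36, 0.34 and 0.08 in the same other pairs. The runs in the ribosomal RNA region of chromosome XII had ratios of 1.18 and 1.24 with α-factor, −0.69 and −0.69 without, 1.36 and 1.53 in fresh medium and 0.23 and 0.19 in sorbitol, so their direction changed between pairs. A run of 6 bins beyond PHO11 on chromosome I (228700 to 229200), where no gene name was placed, had 1892 reads against 445, a ratio of 2.05, and 1.93, 1.86 and 2.16 in the other pairs. The paper lists IMD1 and YAR075W, which together form a paralog of IMD2, among the genes higher in sub1Δ without α-factor. Whether this run lies on them was not tested.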

How the results depend on the processing

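No paired analysis was possible because each strain and condition is 1 library. Counts of calls moved with the settings. Without a filter on low values 4762 bins were called higher and 2203 lower, at or above the upper quartile 316 were higher, and at a log2 threshold of 2 there were 34 higher and 28 lower. For genes, centring gave 18 higher and 41 lower, a minimum of 500 reads 20 higher, a pseudocount of 10 gave 13 higher, and a threshold of 2 gave 4 higher and 3 lower. Under 4 other settings (any bin a gene touches, the gene table shifted by 1 bin to either side, the median of bin ratios) 24 to 26 of the 32 higher and 26 or 27 of the 27 lower genes were shared. Of 42 genes named by rule and called, 39 stayed past the threshold after centring (not ADE57, CLB2 and SHM2), 33 with a pseudocount of 10 (not CDC5, CLB2, DAN1, HLR1, KCC4, PHO92, RGI2, SRO9 and VEL1), 37 of 41 on the bins nearest the 3′ end and 39 of 40 on those nearest the 5′ end, and none changed sign. Depth limits the genes of few reads, such as YGL262W, DAN1 and RGI2.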
